A study of Mus musculus with 16 samples.

Results

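The genes described here are the fatty acid oxidation genes, chosen by name: 32 enzymes, carriers and accessory proteins of mitochondrial, peroxisomal and microsomal fatty acid breakdown. Of these, 25 genes had at least 1 probe set annotated with that single symbol, giving 30 of the 12422 probe sets tested, and 5 genes had more than 1. The mitochondrial group held 22 probe sets of 17 genes, the peroxisomal group 5 probe sets and the microsomal and cytosolic group 3. Acsl1, Cpt1b, Acadsb, Hadha, Acat1, Acot2 and Acox2 had no probe set with that single symbol and were not analysed here. The rule picks probe sets by gene symbol and uses no measured value, although the members were chosen with earlier results of these data known.

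Whole inner ears of P0 (newborn) mice of strain 129SvEv gave the RNA, which was hybridized to 8 Affymetrix MG-U74Av2 chips, 4 per genotype, to ask which transcripts depend on the orphan nuclear receptor COUP-TFI (Nr2f1). One group was wild-type and the other COUP-TFI-/-, which lacks the receptor in every cell of the animal, so the inner ear and any tissue dissected with it carried the same genotype. Hybridizations were done in 2 sets at different times, and each set used 1 RNA pool per genotype on duplicate chips. The chip labels give only the replicate names A1, A2, B1 and B2. Here the letter was read as the set and the number as the duplicate chip, an inference that the labels do not state. There were thus 2 pools per genotype, and the number of mice per pool was not given in the sources used here.

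Mitochondrial fatty acid oxidation takes acyl-CoA across the inner membrane on carnitine and then shortens it in repeated rounds of dehydrogenation, hydration, another dehydrogenation and thiolysis, passing electrons to the respiratory chain through the electron transfer flavoprotein. Peroxisomes shorten very long and branched chains, which mitochondria handle poorly. The pathway runs at high rates in heart, striated muscle, brown fat and the newborn liver, and many of its genes are driven by PPAR-RXR heterodimers at direct repeats that COUP-TFs can also bind.

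A pair of members carry elements that the study listed as known COUP-TF response elements, and these are shown because they tie the receptor to this pathway. The capitals mark the repeat units and the lower case letters the spacer and flanks. In the study's table the mouse Ehhadh element was a direct repeat with a spacer of 2 bases, with repeat units and spacer at chr16:21790693-21790706 (mm9, minus strand). The human ACADL element had a spacer of 9 bases and lay at chr2:210799436-210799456 (hg18, minus strand).

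Ehhadh: cttTGACCTacTGAACTatt

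ACADL (human): tacAGGTGAgtaaatggaGGTTTAca

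The start-site windows of the members were searched for the consensus repeat unit AGGTCA on both strands. RefSeq promoter windows (GRCm38.p6, 250 bases before to 50 bases after the start site) were used for 19 of the 25 genes. The unit occurred in 5 of these 19 windows, or 26.3%, beside 16.3% of all 32851 windows. The spaced pair AGGTCANAGGTCA, which contains the single unit at both ends, was found in 0 of the 19 and in 0.0396% of all windows. The 5 matches are given below on the strand of the gene, with the unit or its reverse complement in capitals, because Phyh and Echs1 are among the members with the most regular genotype differences below. The windows of Etfa and Acot1, which also feature there, held no match to these letters.

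Echs1, from 83 bases before the start site, chr7:140116487-140116516, minus strand: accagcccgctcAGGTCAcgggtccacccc

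Phyh, from base 37 of the transcript, chr2:4919020-4919045, plus strand: gtaagttaagtgTGACCTgggcgcag

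Cpt1a, from 94 bases before the start site, chr19:3323195-3323224, plus strand: cagtttccttacTGACCTcctccccgcagc

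Acadvl, from 87 bases before the start site, chr11:70015498-70015527, minus strand: atggatcaccctAGGTCAggtagaatacag

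Acadm, from 249 bases before the start site, chr3:153944875-153944893, minus strand: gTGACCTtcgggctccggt

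The data were deposited in a GCRMA and a dChip normalization of the same chips, and both are used throughout. The GCRMA values are on a log2 scale and the dChip values are linear intensities. The median dChip intensity of a chip was 291 to 305, and duplicate chips correlated with r between 0.996 and 0.998 in GCRMA. The Nr2f1 probe set was lower in COUP-TFI-/- by -3.37 ± 0.112 (log2, SE, 2 pools per genotype; limma adjusted p = 5.9e-11), as the labels require. Of 20 probe sets for inner ear genes, 19 lay above the lower quartile of mean GCRMA values, 5.88. The same held for 32 of 37 striated muscle probe sets, 4 of 8 brown fat and 7 of 9 liver probe sets, so transcripts that mark other tissues were read as well. Fewer cells of a type and less RNA per cell cannot be told apart in such bulk RNA.

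No fatty acid oxidation gene differed between the genotypes past the adjusted threshold. In limma on the pool means, 0 of the 30 probe sets had an adjusted p under 0.05 in either normalization, where 0.105% of all probe sets did in GCRMA and 0.00805% in dChip. At an unadjusted p under 0.05, 2 of 30 passed in GCRMA (Etfa lower and Acot1 higher in COUP-TFI-/-), where 4.58% of all did, and 0 of 30 in dChip, where 2.13% did. In GCRMA, 15 probe sets were higher and 15 lower in COUP-TFI-/-, and 22 of 30 had the same sign in dChip. The median size of the difference was 0.063 log2 over the members and 0.060 over all probe sets.

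The intervals describe the precision of each probe set taken singly, not of all 30 together, and do not exclude larger changes. Of the 30, 25 lay above the lower quartile, and for the others a change in a low transcript could pass unseen. The 95% limma intervals of all 30 GCRMA differences lay between -0.49 and 0.43 log2, and those of dChip between -0.55 and 0.50. The fitted COUP-TFI-/- level lay between 0.820 and 1.16 times wild-type in GCRMA, and between 0.828 and 1.16 times in dChip. Standard errors ran from 0.0951 to 0.110 in GCRMA. They rest on 1 residual degree of freedom and a prior of 14.3 degrees shared by all probe sets, so they mostly reflect the typical probe set.

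**Figure D1:**
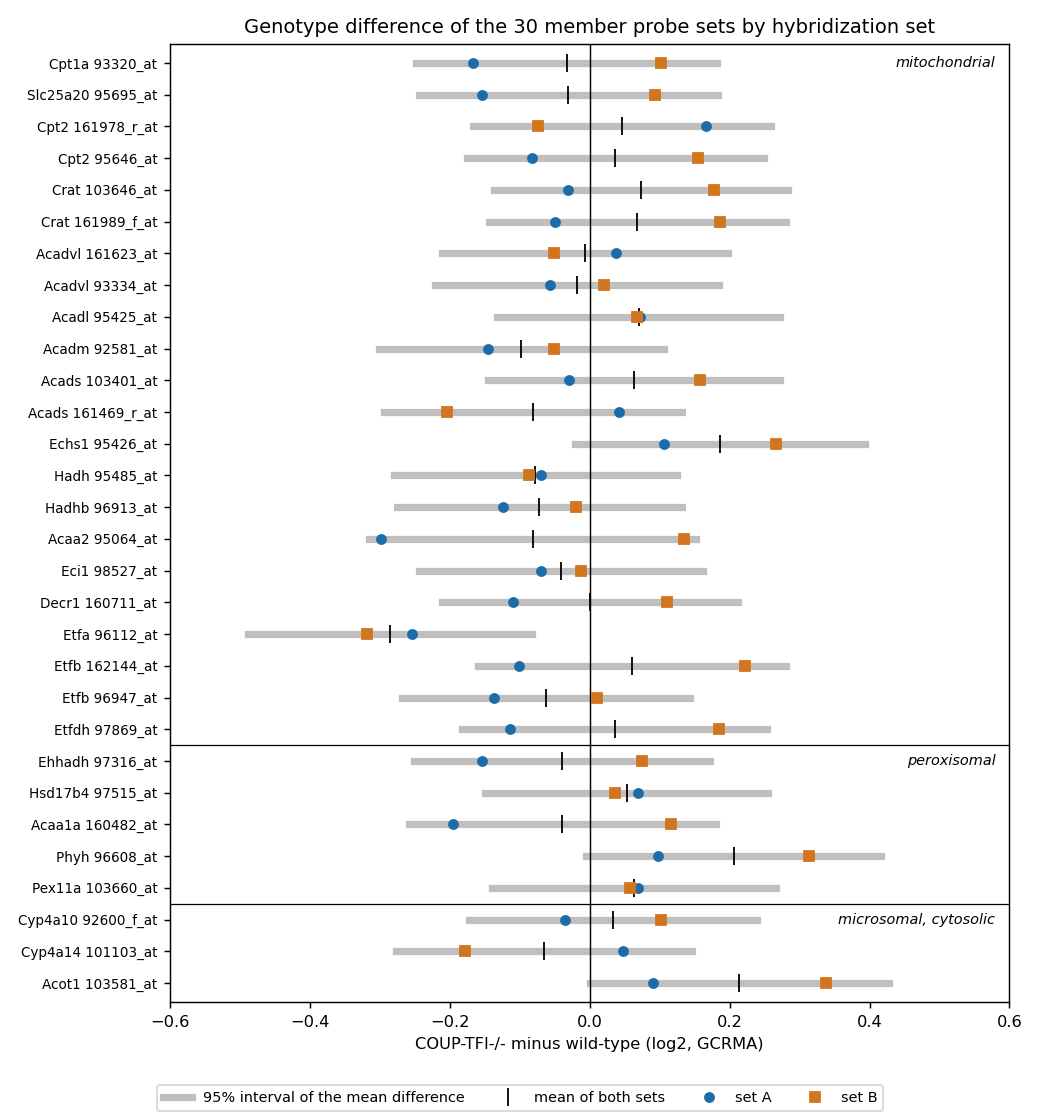
COUP-TFI-/- minus wild-type (log2, GCRMA, horizontal axis) for each of the 30 member probe sets (vertical axis). Circles give set A, squares set B, ticks their mean and grey bars the 95% limma interval of that mean. Set B lies to the right of set A for most mitochondrial members, and the interval of Etfa lies wholly below 0.

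Although the differences of single members were small, the direction of the mitochondrial genes in GCRMA was not the same in the 2 sets. In set A, 17 of 22 mitochondrial probe sets were lower in COUP-TFI-/-, with a median of -0.08 log2, while in set B 8 of 22 were lower, with a median of 0.08. Over both sets the median was -0.01. Over all 12422 probe sets the medians were 0.01 (set A) and -0.00138 (set B), with 5822 and 6250 lower. Each set compares 1 pool per genotype and the 22 probe sets cover 17 genes, so these counts describe single pairs of pools. In dChip the mitochondrial medians were -0.08 (set A) and -0.00209 (set B), with 14 and 11 of 22 lower. Of all 12421 probe sets in dChip, 6044 (set A) and 6574 (set B) were lower. The turn of direction was thus seen in GCRMA and not in dChip.

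Striated muscle markers moved with the set as well. Over their 37 probe sets the median genotype difference was -0.03 log2 for set A but 0.65 for set B, where 4 of the 37 were lower in COUP-TFI-/-. In set A their summed dChip intensity per chip lay between 40402 and 40847 for wild-type and between 38275 and 39379 for COUP-TFI-/-. In set B it lay between 28898 and 29074 for wild-type and between 45474 and 47901 for COUP-TFI-/-. No marker was at 0. Tnnc2, Myh8, Myh4, Pvalb and Mb each had 1 probe set in the lower quartile and another above it. The part of muscle RNA in the members' values was not tested.

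**Figure D2:**
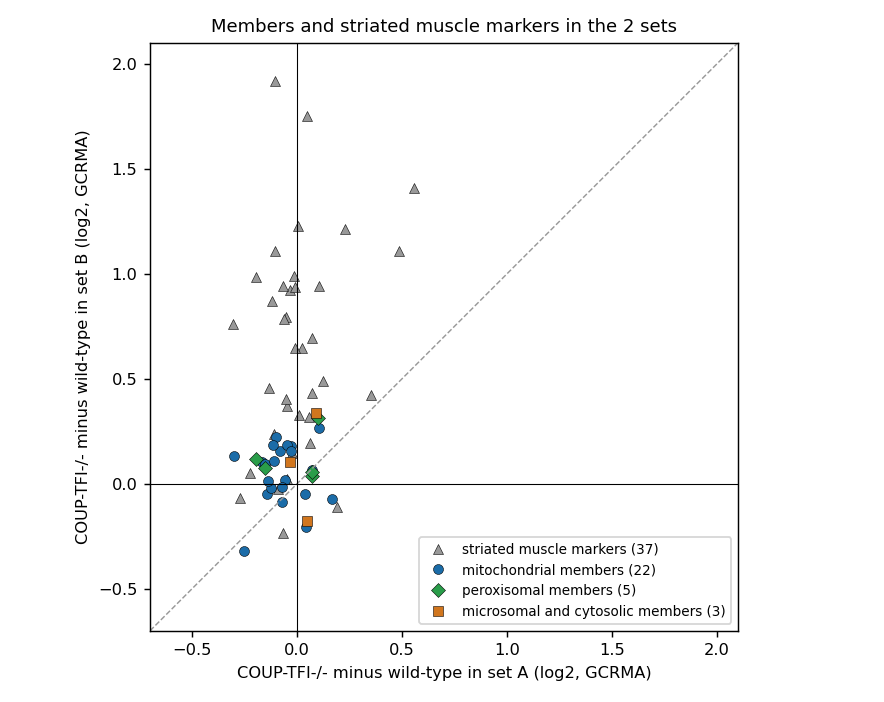
COUP-TFI-/- minus wild-type in set A (horizontal axis) and set B (vertical axis), log2 GCRMA, for mitochondrial (22), peroxisomal (5) and microsomal or cytosolic (3) members and for 37 striated muscle marker probe sets. Muscle markers spread upwards, with a median of 0.65 in set B, while the members lie close to the origin and the dashed line marks equal differences.

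The carnitine shuttle opens the mitochondrial route. Cpt1a, the rate-limiting acyltransferase of the outer membrane, read 9.59 and 9.57 on the wild-type and 9.35 and 9.48 on the COUP-TFI-/- chips of set A (GCRMA log2, chips 1 and 2), and 8.996 and 8.96 against 9.02 and 9.14 in set B. The COUP-TFI-/- chips were below wild-type in set A and above it in set B. The mean difference was -0.03 ± 0.101 (SE), with an interval of -0.25 to 0.18. The carrier Slc25a20, which exchanges acylcarnitine for carnitine, had the same pattern, at -0.15 (set A) and 0.09 (set B). Cpt2, the inner membrane transferase, differed by 0.04 at 95646_at and by 0.05 at the dim probe set 161978_r_at, which read -0.27 in dChip. Both probe sets of Crat, carnitine acetyltransferase, were at 0.07 in GCRMA, and 103646_at read -0.15 in dChip.

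The acyl-CoA dehydrogenases, which introduce the double bond and differ in the chain length they accept, had a median difference of -0.01 over 6 probe sets. Acadm, the medium-chain enzyme, read 9.06 and 8.90 on wild-type and 8.96 and 8.71 on COUP-TFI-/- chips of set A, and 8.88 and 8.94 against 8.80 and 8.92 in set B. The genotypes overlapped in both sets, and the difference was -0.10 ± 0.0958. Acadl, the long-chain enzyme, read 7.14 and 7.23 in wild-type and 7.37 and 7.15 in COUP-TFI-/- of set A, and 6.64 and 6.76 against 6.65 and 6.89 in set B. Its genotypes overlapped too, at 0.07 ± 0.0951. The short-chain enzyme Acads (103401_at) read 7.24 and 7.23 against 7.203 and 7.21 in set A, wild-type first, and 7.30 and 7.38 against 7.43 and 7.57 in set B. Its difference of 0.06 was matched by -0.08 at its other probe set, 161469_r_at, so the 2 probe sets had opposite signs. Acadvl, the very-long-chain enzyme, was in the lower quartile at both probe sets, and 161623_at read 4.31 and 4.35 against 4.31 and 4.42 in set A and 4.70 and 4.69 against 4.94 and 4.34 in set B. Here 1 chip, COUP-TFI-/- B2, lay below all others of its set.

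Among the hydratase, dehydrogenase and thiolase genes, Echs1 was the one that was higher in COUP-TFI-/- in both sets. Echs1, the short-chain enoyl-CoA hydratase, read 9.14 and 9.22 on wild-type and 9.32 and 9.26 on COUP-TFI-/- chips of set A, and 9.23 and 9.27 against 9.51 and 9.52 in set B. Both COUP-TFI-/- chips lay above both wild-type chips within each set. The difference was 0.19 ± 0.0973 (limma adjusted p = 1), with an interval of -0.02 to 0.39, and 0.13 in dChip, where the chips were separated in the same way. Hadh and Hadhb, a 3-hydroxyacyl-CoA dehydrogenase and the thiolase subunit of the trifunctional protein, differed by -0.08 and -0.07 in GCRMA, lower in both sets. In dChip Hadhb was at -0.08 and Hadh at 0.04, with the opposite sign.

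Acaa2, the mitochondrial 3-ketoacyl-CoA thiolase, was the member with the largest gap (GCRMA) between its genotype differences in the 2 sets. In set A it read 11.50 on both wild-type chips and 11.23 and 11.18 on the COUP-TFI-/- chips, and in set B 10.99 and 11.03 on wild-type and 11.07 and 11.22 on COUP-TFI-/- chips. The genotypes did not overlap in either set, and their order was opposite. COUP-TFI-/- minus wild-type came to -0.30 (set A) and 0.13 (set B), an interaction of -0.43 (limma on 8 chips, adjusted p = 0.106), and the interaction in dChip was -0.45 (adjusted p = 0.105). It was the 1 of 30 members past the unadjusted interaction threshold of 0.01 in each normalization, where 6.01% of all probe sets passed in GCRMA and 8.37% in dChip. After adjustment over all probe sets it did not pass in either. Without wild-type B1 or COUP-TFI-/- A2 the GCRMA count of 1 became 0, and without COUP-TFI-/- B1 it became 3, Acaa1a and Acadvl with Acaa2. Without COUP-TFI-/- B2 the count stayed at 1, but the member called was Etfb and not Acaa2. These p-values measure the spread of duplicate chips of 1 pool, not of mice.

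The electron transfer flavoprotein accepts electrons from all the acyl-CoA dehydrogenases. Etfa, its alpha subunit, read 9.49 and 9.25 on wild-type and 9.15 and 9.08 on COUP-TFI-/- chips of set A, and 8.89 and 8.46 against 8.26 and 8.45 in set B. Both COUP-TFI-/- chips were below both wild-type chips in each set, narrowly so in set B for wild-type B2 and COUP-TFI-/- B2 (8.46 and 8.45). The difference of -0.29 ± 0.0955 had the lowest p of any member in GCRMA (limma adjusted p = 0.713) and an interval of -0.49 to -0.08. In dChip it was -0.07 (adjusted p = 1), with an interval of -0.32 to 0.19, and the chips overlapped. The beta subunit Etfb had opposite signs at its probe sets, 0.06 at 162144_at and -0.06 at 96947_at, and Etfdh, the ubiquinone oxidoreductase that passes the electrons on, differed by 0.04.

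The enzymes that make unsaturated chains fit for the cycle were little different between genotypes. Eci1, an enoyl-CoA isomerase, read 8.05 and 7.93 against 7.94 and 7.90 in set A, wild-type first, and 8.39 and 8.30 against 8.34 and 8.32 in set B, a difference of -0.04 ± 0.0954. Decr1, the dienoyl-CoA reductase, differed by 0.000544 in GCRMA and by -0.14 in dChip.

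In the peroxisome, Phyh, the hydroxylase that starts the alpha-oxidation of phytanic acid, was higher in COUP-TFI-/- in both sets. It read 8.42 and 8.46 on wild-type and 8.61 and 8.47 on COUP-TFI-/- chips of set A, and 8.64 and 8.42 against 8.78 and 8.90 in set B. The chips of the genotypes did not overlap within a set, in GCRMA or in dChip. The difference was 0.21 ± 0.099 (limma adjusted p = 1), with an interval of -0.00486 to 0.42, and 0.16 in dChip (adjusted p = 1).

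The other peroxisomal members gave smaller values. Ehhadh, the bifunctional hydratase and dehydrogenase with the response element shown above, was dim, at 4.08 and 4.22 on wild-type and 4.03 and 3.97 on COUP-TFI-/- chips of set A and 3.96 and 3.86 against 3.99 and 3.98 in set B. COUP-TFI-/- was lower in set A and higher in set B, and the mean difference was -0.04 ± 0.0995. At this level, in the lower quartile of the chip, a change in a low transcript could pass unseen. Hsd17b4, the D-bifunctional protein, differed by 0.05, Acaa1a, a peroxisomal thiolase, by -0.04 and Pex11a, a peroxisome division factor induced by PPAR agonists, by 0.06. The median of the 5 was 0.05 in GCRMA and 0.00397 in dChip. By GCRMA, none of the 5 was lower in COUP-TFI-/- in set B, and 2 were in set A. By dChip, 2 were lower in set A and 2 in set B. Over all 12422 probe sets in GCRMA, 5822 were lower in set A and 6250 in set B.

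Of the microsomal and cytosolic members, Acot1, a cytosolic thioesterase that returns acyl-CoA to free fatty acid, was the highest in COUP-TFI-/- relative to wild-type. It read 8.84 and 8.72 on wild-type and 8.87 and 8.87 on COUP-TFI-/- chips of set A, and 8.87 and 8.69 against 9.08 and 9.15 in set B. No wild-type chip exceeded any COUP-TFI-/- chip, although wild-type B1 and the COUP-TFI-/- chips of set A round to the same 8.87. In GCRMA such full separation upwards was seen for 1 of 30 members and for 168 of all 12422 probe sets. The dChip intensities were also apart, at 549 to 619 for wild-type and 648 to 727 for COUP-TFI-/-. The difference was 0.21 ± 0.100 (limma adjusted p = 1), with an interval of 0.000775 to 0.43, and 0.21 in dChip (adjusted p = 1). Acot1 has near-identical paralogs, among them Acot2, so its probes may read more than 1 gene. The omega-hydroxylases Cyp4a10 and Cyp4a14 differed by 0.03 and -0.07, Cyp4a10 on a dim probe set whose name marks probes shared within a gene family.

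**Figure D3:**
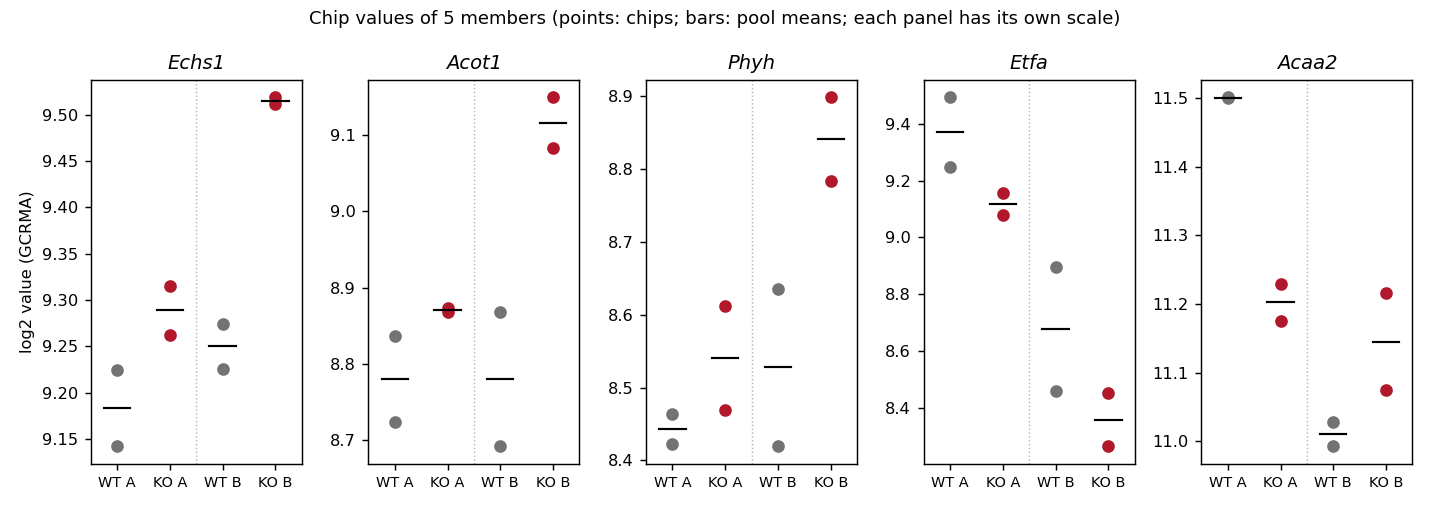
GCRMA log2 values (vertical axis, own scale in each panel) of Echs1, Acot1, Phyh, Etfa and Acaa2 on each chip, by genotype and set (WT wild-type, KO COUP-TFI-/-). Points are chips and bars pool means of 2 chips. Echs1, Acot1 and Phyh are higher and Etfa lower in COUP-TFI-/- in both sets, while Acaa2 turns from -0.30 in set A to 0.13 in set B.

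By the separation of chips within both sets, 3 of 30 members (Echs1, Phyh and Acot1) were higher in COUP-TFI-/- in GCRMA, where 4.60% of all probe sets were, and 1 of 30 (Etfa) was lower, where 3.65% were. The study's final hit list rule asks for no interaction in either normalization, a genotype p under 0.01 in 1 and under 0.05 in the other. With limma on 8 chips, Echs1 and Acot1 met it, 2 of 30 where 2.42% of all probe sets did. With the methods' 2-way analysis of variance Echs1 and Phyh met it, 2 of 30 where 1.42% did. Both rules treat duplicate chips as replicates. Leaving out 1 chip changed the limma result, from 2 members to 0 without wild-type B2, COUP-TFI-/- A1 or COUP-TFI-/- B2, to Echs1 alone without wild-type A2, to Acot1 alone without wild-type A1 and to Phyh alone without COUP-TFI-/- A2. Without wild-type B1 or COUP-TFI-/- B1 the count stayed at 2, with Phyh in place of Echs1.

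The hybridization set gave larger differences than the genotype for these genes. In limma on 8 chips, 8 of 30 members were higher in set A at an adjusted p under 0.05, where 21.9% of all probe sets were, and 6 of 30 were higher in set B, where 24.2% were. The median size of the set difference was 0.142 log2 over the members and 0.157 over all probe sets. Without wild-type A2 the count of 14 became 9. The p-values for set, here and in the next paragraph, measure the spread of duplicate chips within a pool, not between pools.

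The members highest in set A relative to B were Etfa, Acadl and Cpt1a, by 0.73 (adjusted p = 8.66e-05), 0.49 (0.000276) and 0.47 (7.45e-05). Those highest in set B were Eci1, Acadvl (161623_at) and Acads (103401_at), at -0.38 (adjusted p = 0.000268), -0.32 (0.0239) and -0.20 (0.0144). Their dChip differences were 0.25 for Etfa, 0.29 for Cpt1a, -0.21 for Eci1, -0.38 for Acadvl and -0.12 for Acads. The other Acadvl probe set, 93334_at, was at -0.10 in GCRMA (limma on 8 chips, adjusted p = 0.195). In dChip it had the opposite sign, at 0.18 (adjusted p = 0.0381), and both Acadvl probe sets were in the lower quartile. The brighter Acads probe set, 161469_r_at, was at -0.02 in GCRMA (adjusted p = 0.802). Acadl went the other way in dChip, at -0.18 (adjusted p = 0.0255), so its direction between sets depends on the normalization. For Etfa the set difference was 0.69 in wild-type and 0.76 in COUP-TFI-/-, each more than its genotype difference.

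**Figure D4:**
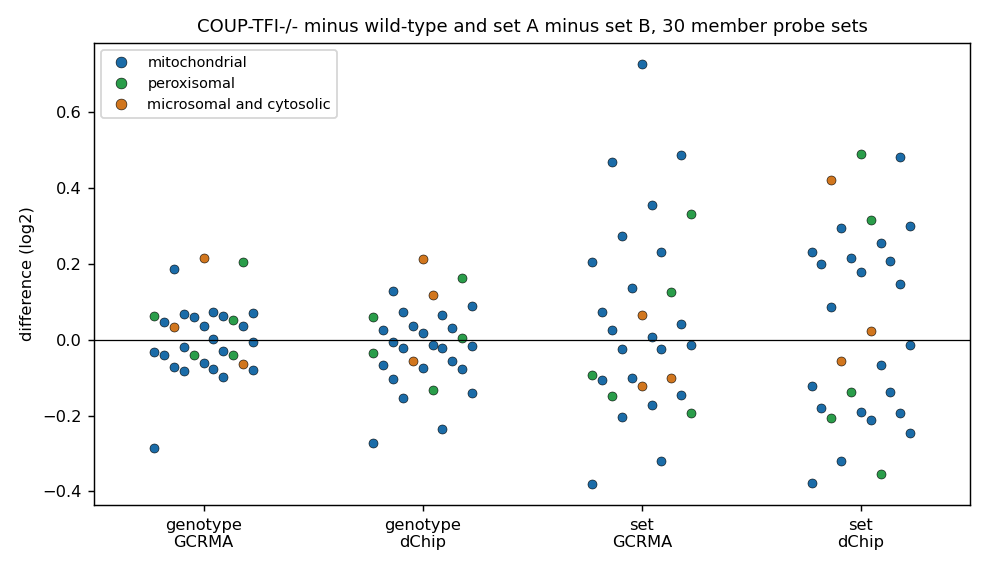
Differences of the 30 member probe sets (log2, vertical axis) by genotype (COUP-TFI-/- minus wild-type) and by hybridization set (A minus B), in GCRMA and dChip. Each point is a probe set, coloured by compartment and spread sideways for visibility. Genotype differences stay between -0.29 and 0.21 in both normalizations, while set differences reach 0.73 in GCRMA.

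The genes around the pathway were read from lists of regulators, uptake proteins, fuel switches, ketone body, uncoupling and further oxidation and peroxisome genes, 65 probe sets of 51 genes. In GCRMA 3 of 65 passed the adjusted threshold, all lower in COUP-TFI-/-, namely Nr2f1 itself and both probe sets of Ucp1. Nr2f1 is the deleted gene and Ucp1 was among the study's top hits, and the lists were chosen with earlier results known. The count therefore cannot be weighed against the 0.105% of all probe sets, and no other listed probe set passed. At an unadjusted p under 0.05, 3 were higher and 6 lower, where 4.58% of all probe sets passed in either direction. The 6 include Nr2f1 and both probe sets of Ucp1. The nuclear receptors and the coactivator that drive the pathway did not pass. The probe sets of Pparg and Ppargc1a were in the lower quartile, where a change in a low transcript could pass unseen. In GCRMA no wild-type chip of Ppargc1a reached any COUP-TFI-/- chip, but in dChip the chips overlapped. Such full separation upwards in GCRMA was seen for 2 of the 65 listed probe sets and for 168 of all 12422. Ppara differed by 0.05 (adjusted p = 1), Pparg by -0.10 (adjusted p = 1) and Ppargc1a by 0.14 (adjusted p = 1). Nr2f2, the COUP-TFI homologue, differed by 0.03 at 103052_r_at and by -0.14 at the dim 161792_f_at (adjusted p = 1 for both), the latter reading -0.43 in dChip (adjusted p = 1).

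Ucp1, the brown fat protein that turns the energy of fat oxidation into heat, was lower in COUP-TFI-/- in both sets. It differed by -1.26 ± 0.130 at 99507_at (limma adjusted p = 0.000258), at -0.91 (set A) and -1.60 (set B). At 161422_f_at, in the lower quartile of GCRMA values, it differed by -0.59 ± 0.0955 (limma adjusted p = 0.0208). Its dChip differences were -0.95 (adjusted p = 0.856) and -1.43 (adjusted p = 1), so the adjusted call was not made there. The summed dChip intensity of the 8 brown fat probe sets, Ucp1 included, ran from 2525 to 2548 on the wild-type chips and from 1953 to 2005 on the COUP-TFI-/- chips of set A. In set B it ran from 1930 to 1935 and from 1599 to 1642. Ucp1 is counted in these sums, so they do not stand apart from its own fall. In set B its wild-type chips read 347 and 362 at 99507_at and 198 and 214 at 161422_f_at (dChip, B2 and B1). The COUP-TFI-/- chips there read 165 and 168, and 62.2 and 51.7. A sum without Ucp1 was not taken. Of the 8, 4 were higher and 4 lower in COUP-TFI-/- in each normalization, with a GCRMA median of -0.03. The lower sum is therefore not a fall of the list as a whole. Cidea, which sits on lipid droplets, differed by -0.32 (adjusted p = 0.661), and Elovl3 and Cox7a1 were in the lower quartile. The part of brown fat RNA in these values was not tested.

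Pdk4, the kinase that shuts off pyruvate dehydrogenase when fat is burned, differed by 0.41 ± 0.108 (limma adjusted p = 0.427), at 0.20 (set A) and 0.61 (set B). Among the further oxidation enzymes, Ech1, the dienoyl-CoA isomerase, and Eci2, another enoyl-CoA isomerase, went from -0.20 and -0.16 in set A to 0.27 and 0.21 in set B (limma interaction, adjusted p = 0.101 and 0.152). Fabp3, the fatty acid binding protein of heart and muscle, did the same, from -0.29 to 0.33 (interaction adjusted p = 0.0421). Ech1, Eci2 and Fabp3, and likewise Slc27a4 (-0.21 to 0.22), had the signs of Acaa2 in the same sets. Cd36 at the dim 161704_r_at and Gcdh at 162189_r_at turned the other way, from 0.17 and 0.03 to -0.38 and -0.34. Their interaction adjusted p was 0.0719 and 0.152 (limma on 8 chips). Of the 65 listed probe sets, 8 had an unadjusted interaction p under 0.01 in GCRMA, where 6.01% of all probe sets did. They included Nr2f1 and, at 99507_at, Ucp1.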

How the data were processed

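The deposited GCRMA values are log2 values, 1 per probe set, that the authors made from the chips with a background correction using GC content. The deposited dChip values are linear intensities from the authors' model-based summary. Software versions are not given in the sources used here. Members and gene lists were chosen with earlier results of these data known. The named genes rule gave chip values for members with a genotype p under 0.05, in a final list or with an interaction p under 0.01, for the 3 largest set differences each way, and for Cpt1a, Acadm, Acadl and Ehhadh.

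Probe sets were named through the platform annotation, where 10833 had 1 symbol, 396 several and 1193 none. All 25 members matched RefSeq by gene identifier. The 66 control probe sets were left out, leaving 12422 for GCRMA and 12421 for dChip, and 89 dChip values under 1 were set to 1 before log2. Genotype was tested with limma 3.58.1 (R 4.3.3, statmod 1.5.0) on 4 values per probe set (1 per pool, duplicate chips averaged), blocked by set, 2-sided, adjusted by Benjamini-Hochberg over all probe sets. The prior added 14.3 degrees of freedom for GCRMA and 4.55 for dChip. Set and interaction came from limma on the 8 chips. The scripts were tested on simulated data. Sets pair the pools by the methods, and the set difference in wild-type and in COUP-TFI-/- correlated across probe sets with r = 0.752. Nothing says that the pools came from separate litters, so the genotype p-values on pool means measure the spread between these pools. The p-values from the 8 chips, for set and interaction, measure the spread of duplicate chips. The arrays give no counts, and the number of pools limits the precision. Alternatives were dChip values, quantile normalization, no block, chips as replicates, trended and robust moderation, a low-value filter, a higher dChip floor, 1 probe set per gene, the 2-way analysis of variance and each chip left out.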

Additional observations from a re-analysis of the deposited data

Results flagged for a closer look

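Each member's 4 chips of a genotype were checked for a chip standing apart from the other 3 in GCRMA, a check that chance alone trips in about 1 in 20 groups, and 4 of 60 groups were tripped. Cpt2 (95646_at) read 8.13 on COUP-TFI-/- chip A1, below its other chips. Crat (103646_at) read 7.85 on wild-type chip B1, below its other chips. Etfb (96947_at) read 9.74 on wild-type chip B2 and Hsd17b4 read 9.04 on wild-type chip B1, both above the others. The duplicate chip of the same pool did not share the value in any of these cases.

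For Acaa2 the genotype difference was not the same in the 2 sets, by the interaction term of limma on 8 chips: set A minus set B gave -0.43. It passed the unadjusted threshold of 0.01, as 6.01% of all probe sets did, but not the adjustment over all of them (adjusted p = 0.106).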

How the results depend on the processing

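The count of adjusted genotype calls among members stayed at 0 in both normalizations under all alternatives run at the adjusted threshold, with any 1 chip left out as well. By unadjusted p it was 2 in GCRMA. Neither leaving out the set block nor a replicate block by chip label (8 chips) gave a call: 0 in GCRMA and 0 in dChip for both. Without the set block the 12 single genes kept their side of the threshold, and neither setting was run for the other results.

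With 1 chip left out, the members in the final list numbered 0 to 2, set calls 9 to 13 and interaction calls 0 to 3. Acaa2 was no longer called without wild-type B1, COUP-TFI-/- A2 or COUP-TFI-/- B2, and in the last case Etfb was called instead. Acaa1a and Acadvl joined Acaa2 without COUP-TFI-/- B1. With quantile normalization the final list held Acot1 and Phyh. The mitochondrial median ran from -0.03 to 0.002341. The peroxisomal median of 0.05 ran from 0.008866 to 0.05294 with 1 chip left out. It was 0.003969 in dChip, 0.05811 without the lower quartile, and, as added after seeing the data, 0.06938 within set A and 0.07412 within set B.

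Of 144 alternatives for 12 single genes, 139 kept direction and side of the threshold and 5 turned direction, all for differences near 0. Ehhadh turned to 0.003969 in dChip, Cpt1a to 0.002017 without COUP-TFI-/- A1, and Acadvl to 0.144 without COUP-TFI-/- B2, 0.02071 without COUP-TFI-/- A1 and 0.002607 without wild-type A2. With 1 chip left out, Cpt1a ran from -0.06712 to 0.002017 and Acadvl from -0.1576 to 0.144. The cause was not tested. Dim probe sets (Ehhadh, Acadvl, Cyp4a10 and 161978_r_at of Cpt2) lie in the lower quartile of values, and the files hold no detection call for them, which limits what they can show.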
